A study of Mus musculus with 8 samples.

Results

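The genes described here encode the proteasome, its regulatory and assembly partners and its alternative caps, measured in the thalamus of male C57BL/6 mice. They were taken by name: every probe set annotated with 1 gene symbol that starts with Psma, Psmb, Psmc, Psmd, Psme, Psmf or Psmg, with the brightest probe set standing for each gene. The rule found 50 genes on 56 probe sets, out of 19938 genes with a probe set of their own. Of the 50, 47 had a mean log2 level of at least 5.63, the level below which the dimmest 40% of probe sets lay, and entered the tests with 15791 probe sets in all. The 3 that did not pass were Psmb8, an immunoproteasome subunit, Psmb11, the catalytic subunit of the thymus, and Psma8, a subunit of the testis. Psmc3ip and Psme3ip1 were kept because the rule takes them, although they encode partners of recombination enzymes and of the Psme3 cap and not proteasome subunits.

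Proteasomes degrade proteins that carry a ubiquitin chain. A barrel-shaped core, the 20S particle, holds the peptidase sites on its beta subunits behind a gate formed by its alpha subunits, and a regulatory particle, the 19S cap, binds the ubiquitin chain, removes it and unfolds the substrate with a ring of ATPases. In cells exposed to interferon 3 of the beta subunits can be exchanged for immunoproteasome subunits that favour peptides for antigen presentation, and other caps (the PA28 and PA200 proteins) can replace the 19S particle. Impaired protein degradation has long been studied in parkinsonism, where aggregated protein collects in dopamine neurons.

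The study asked how thalamic gene expression responds to chronic MPTP, a toxin of dopamine neurons used to model parkinsonism, with and without manual needling. All mice were injected into the abdomen daily for 4 weeks from about 6 weeks of age. The acupoint group received MPTP at 20 mg/kg and needling at GB34 and LR3, the non-acupoint group received the same MPTP with needling at both hips, the MPTP group received MPTP alone, and the control group received saline. Needled mice had 14 sessions, 1 every 48 h. Total RNA from the thalamus of 2 mice of each group was hybridised, 1 mouse to an array, which gave 8 arrays. No unneedled but handled group and no saline group with needling is among these samples, so needling is seen only on top of MPTP. The labels name the animals by number and give no slide, scan or dissection batch. The p-values below therefore measure the spread between 2 mice of a group, pooled over the 4 groups. Because the tissue is bulk, fewer cells of a type and less RNA per cell cannot be told apart.

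Values are log2 levels as deposited. Arrays had medians between 6.18 and 6.29, and the number of arrays limits the precision. Over the probe sets tested, 2 arrays stood apart: MPTP mouse 1 and non-acupoint mouse 1 correlated at 0.982 with each other and at 0.905 to 0.936 with the other 6 arrays, which correlated at 0.981 to 0.995 among themselves. All 12 markers of thalamus passed the brightness filter, with mean levels of up to 10.01 on the acupoint arrays, 9.79 to 9.82 on the non-acupoint arrays, 9.68 to 9.69 on the MPTP arrays and 9.12 to 9.24 on the control arrays. Dopamine neuron markers, of which 8 of 10 passed, averaged 6.90 to 6.97 on acupoint arrays, 7.24 to 7.45 on non-acupoint arrays, 7.05 to 8.25 on MPTP arrays and 8.52 to 8.70 on control arrays. All 10 choroid plexus markers passed and averaged 8.29 to 8.83 on acupoint arrays, 5.66 to 5.77 on non-acupoint arrays, 8.79 to 8.84 on MPTP arrays and 6.98 to 6.99 on control arrays. On the 2 arrays that stood apart, 6 of 9 endothelium markers were above all 6 others and 2 below, with a median difference of 0.37. Of all probe sets 28.3% were above and 29.2% below. Above and below were 1 and 4 of 10 astrocyte markers, 1 and 4 of 9 oligodendrocyte markers, 4 and 4 of 11 microglia markers, and 3 and 2 of 12 thalamus markers. Of 7 striatum markers 2 were above all 6 others and 0 below. All 7 were higher than the mean of the other 6 on MPTP mouse 1 (median 1.42), where 7792 of 15791 probe sets were. On non-acupoint mouse 1 this held for 4 of 7 (median 0.22), and for 7518 of 15791 probe sets. The part of tissue composition in the results below was not tested.

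The genes on which the results turn are introduced with the stretch of 150 bases before their transcription start (RefSeq, mouse build GRCm38.p6), written 5′ to 3′ on the strand of the gene. They were chosen to show 2 catalytic core subunits and a lid enzyme that were low on the 2 arrays that stood apart (Psmb6, Psmb5, Psmd14), genes that were higher there (Psmd11, Psme4), and the gene with the largest difference between injected and control mice (Psme1). Capitals mark TGACNNNGC, the core of the antioxidant response element bound by the Nfe2l1 and Nfe2l2 factors, or GGGCGG, the GC box, on either strand.
Psmb6: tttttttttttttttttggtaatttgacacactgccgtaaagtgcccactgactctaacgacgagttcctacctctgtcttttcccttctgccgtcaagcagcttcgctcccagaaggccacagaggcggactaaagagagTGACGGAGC
Psmb5: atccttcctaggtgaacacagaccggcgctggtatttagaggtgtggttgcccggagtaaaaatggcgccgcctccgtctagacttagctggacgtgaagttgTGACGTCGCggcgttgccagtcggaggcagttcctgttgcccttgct
Psmd14: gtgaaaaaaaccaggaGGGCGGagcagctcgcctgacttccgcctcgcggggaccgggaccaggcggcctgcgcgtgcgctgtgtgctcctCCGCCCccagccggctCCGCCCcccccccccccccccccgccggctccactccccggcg
Psmd11: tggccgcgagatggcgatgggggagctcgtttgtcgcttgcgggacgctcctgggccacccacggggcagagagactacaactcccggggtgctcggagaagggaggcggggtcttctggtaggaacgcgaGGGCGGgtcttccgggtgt
Psme4: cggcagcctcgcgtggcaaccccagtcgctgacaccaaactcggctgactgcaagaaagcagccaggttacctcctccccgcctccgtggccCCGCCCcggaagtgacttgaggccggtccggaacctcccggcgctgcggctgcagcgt
Psme1: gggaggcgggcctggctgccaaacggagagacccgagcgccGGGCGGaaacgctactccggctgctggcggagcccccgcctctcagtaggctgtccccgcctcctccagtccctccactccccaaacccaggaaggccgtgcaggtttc

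These stretches lie at chr11:70525207-70525356 (Psmb6, + strand), chr14:54617996-54618145 (Psmb5, - strand), chr2:61711544-61711693 (Psmd14, + strand), chr11:80428465-80428614 (Psmd11, + strand), chr11:30771625-30771774 (Psme4, + strand) and chr14:55578344-55578493 (Psme1, + strand). The gene record of Psmb6 begins at 70525324, inside its stretch, because the promoter table uses another start. In Psmb6 the TGACNNNGC match ends at the start used, and in Psmb5 it begins 47 bases before it. A promoter window from 250 bases before to 50 bases after the start was available for 42 of the 50 genes. Only the 250 bases before the start were searched. TGACNNNGC stood in 5 of the 42 (Psmb5, Psmb6, Psmc6, Psmd12 and Psmd9), or 11.9%, against 11.5% of all 27025 genes with a window. GGGCGG stood in 54.8% of the proteasome windows and in 35.4% of all windows, and CCAAT in 38.1% against 37.5%. The core of the interferon-stimulated response element (TTTC, any pair of bases, TTTC) stood in 7.14% against 3.46%, which was 3 genes (Psmb3, Psmd4 and Psmd9). A match describes these letters in these 250 bases only.

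The main pattern over the 8 arrays was a lower level of the core and most of the 19S genes on MPTP mouse 1 and non-acupoint mouse 1. Of 47 genes, 32 were below all 6 other arrays on both of them, where 29.2% of all probe sets tested were, and 4 were above all 6, where 28.3% of all probe sets were. The median difference between the mean of these 2 arrays and the mean of the other 6 was -0.48 on the log2 scale over the 47 genes and -0.02 over all probe sets. By array it was -0.40 on MPTP mouse 1 and -0.40 on non-acupoint mouse 1. The arrays were set apart from the whole table, which holds these genes, so the counts are a description with no test. Each of the 2 has a partner of the same treatment that did not show the pattern, so these values do not separate treatments.

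**Figure D1:**
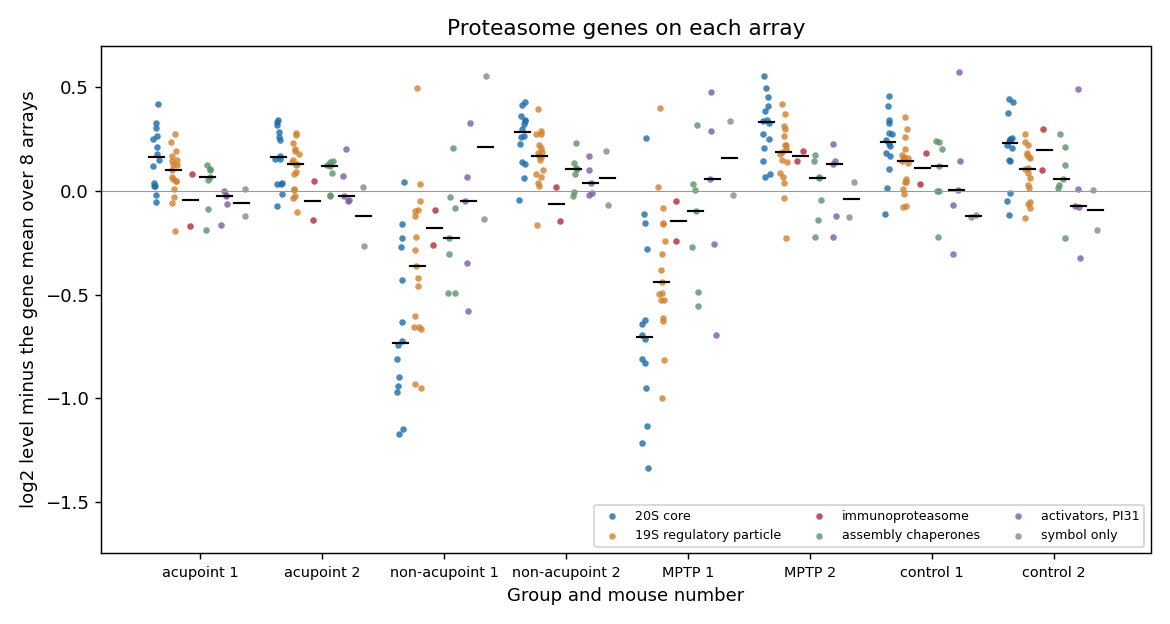
Log2 level of each of the 47 proteasome genes minus its mean over 8 arrays (y axis), by group and mouse number (x axis). Points are genes, colours are classes and black bars are class medians. The core bars lie at -0.74 on non-acupoint mouse 1 and at -0.71 on MPTP mouse 1, and between 0.16 and 0.33 on the other 6 arrays.

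Core subunits were the class with the lowest median on these 2 arrays, and 13 of 14 were below all 6 others. The median difference was -0.96 over the 14 genes, -1.02 over the 7 alpha subunits and -0.90 over the 7 beta subunits. Psmb6, the beta subunit with caspase-like activity, had a log2 level of 8.31 on non-acupoint mouse 1 and 8.13 on MPTP mouse 1. On the other arrays it had 9.79 and 9.80 in acupoint mice, 9.89 in non-acupoint mouse 2, 9.96 in MPTP mouse 2, and 9.92 and 9.89 in control mice. The 6 values lay within 0.17 of each other, and the mean of the 2 low arrays was 3.15-fold lower than theirs.

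Psmb5, the beta subunit with chymotrypsin-like activity and the main target of proteasome inhibitors, followed the same order. It had 7.90 on non-acupoint mouse 1 and 7.62 on MPTP mouse 1, against 9.11 and 9.13 in acupoint mice, 9.21 in non-acupoint mouse 2, 9.23 in MPTP mouse 2, and 9.25 and 9.28 in control mice. The 2 low arrays were 2.71-fold below the other 6. Psmb7, the beta subunit with trypsin-like activity, differed by -0.90, so all 3 catalytic subunits of the standard core were below the other 6 arrays.

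Psmb2, a structural beta subunit, had 8.10 on non-acupoint mouse 1 and 8.14 on MPTP mouse 1, and between 9.50 and 9.83 on the other 6 arrays, a 2.91-fold difference. The smallest differences among beta subunits were those of Psmb1 (-0.28) and Psmb4 (-0.30), which were still below all 6 others. Among alpha subunits Psma4 (-1.19), Psma3 (-1.15), Psma7 (-1.13), Psma1 (-1.02) and Psma5 (-0.89) were low together, and Psma2 differed by -0.22. Psma6 was the exception of the core. It had 9.58 on non-acupoint mouse 1 and 9.80 on MPTP mouse 1, against 9.52 and 9.47 in acupoint mice, 9.49 in non-acupoint mouse 2, 9.61 in MPTP mouse 2, and 9.43 and 9.42 in control mice, so it overlapped the other arrays, with a mean difference of 0.20.

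In the 19S particle 13 of 17 genes were below all 6 others on both arrays, with a median difference of -0.57. All 6 ATPases of the base ring were among them (median -0.54), led by Psmc4 at -1.16, while Psmc1 differed by -0.45 and Psmc5 by -0.27. Of the 3 base subunits without ATPase activity, Psmd2, a scaffold that binds ubiquitin-like domains, differed by -0.81. Psmd1, the other scaffold, and Psmd4, a ubiquitin receptor, differed by -0.05 and -0.09 and overlapped the other arrays.

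The lid had 6 of 8 genes below all 6 others and 1 above. Psmd14, the enzyme that cuts the ubiquitin chain off the substrate, had 8.99 on non-acupoint mouse 1 and 8.95 on MPTP mouse 1, against 10.22 and 10.22 in acupoint mice, 10.34 in non-acupoint mouse 2, 10.36 in MPTP mouse 2, and 10.24 and 10.22 in control mice. That was 2.46-fold lower, the largest difference in the 19S particle. Psmd11, a lid subunit that holds the cap to the core, went the other way. It had 9.92 on non-acupoint mouse 1 and 9.83 on MPTP mouse 1, and between 9.20 and 9.35 on the other 6 arrays, which was 1.51-fold higher. Psmd13, another lid subunit, differed by -0.09 and overlapped.

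Genes outside the 26S complex were divided. Of 7 assembly chaperones, 4 were below all 6 others, with Psmd9 at -0.65, and Psmg1, Psmg2 and Psmd5 overlapped the other arrays. Psme1 (-0.85) and Psme2 (-0.40), which form the cytosolic PA28 cap, were below all 6 others. Psme3, the nuclear PA28 cap, was above all 6 at a difference of 0.24, and Psme4, which encodes PA200, at 0.54. The inhibitor Psmf1 differed by 0.00. Psme3ip1, taken by its symbol only, was above all 6 at 0.60.

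The 2 immunoproteasome genes that passed the brightness filter overlapped the other 6 arrays. Psmb9, which takes the place of Psmb6, had 6.65 on non-acupoint mouse 1 and 6.87 on MPTP mouse 1, against 6.99 and 6.96 in acupoint mice, 6.77 in non-acupoint mouse 2, 7.10 in MPTP mouse 2, and 6.95 and 7.01 in control mice. Psmb10, which takes the place of Psmb7, differed by -0.22, and neither was below all 6 others on both arrays. Psmb8, which takes the place of Psmb5, lay below the brightness filter and was not tested. It had 5.31 on non-acupoint mouse 1 and 5.25 on MPTP mouse 1, just below the other 6 arrays, which had between 5.33 and 5.59.

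**Figure D2:**
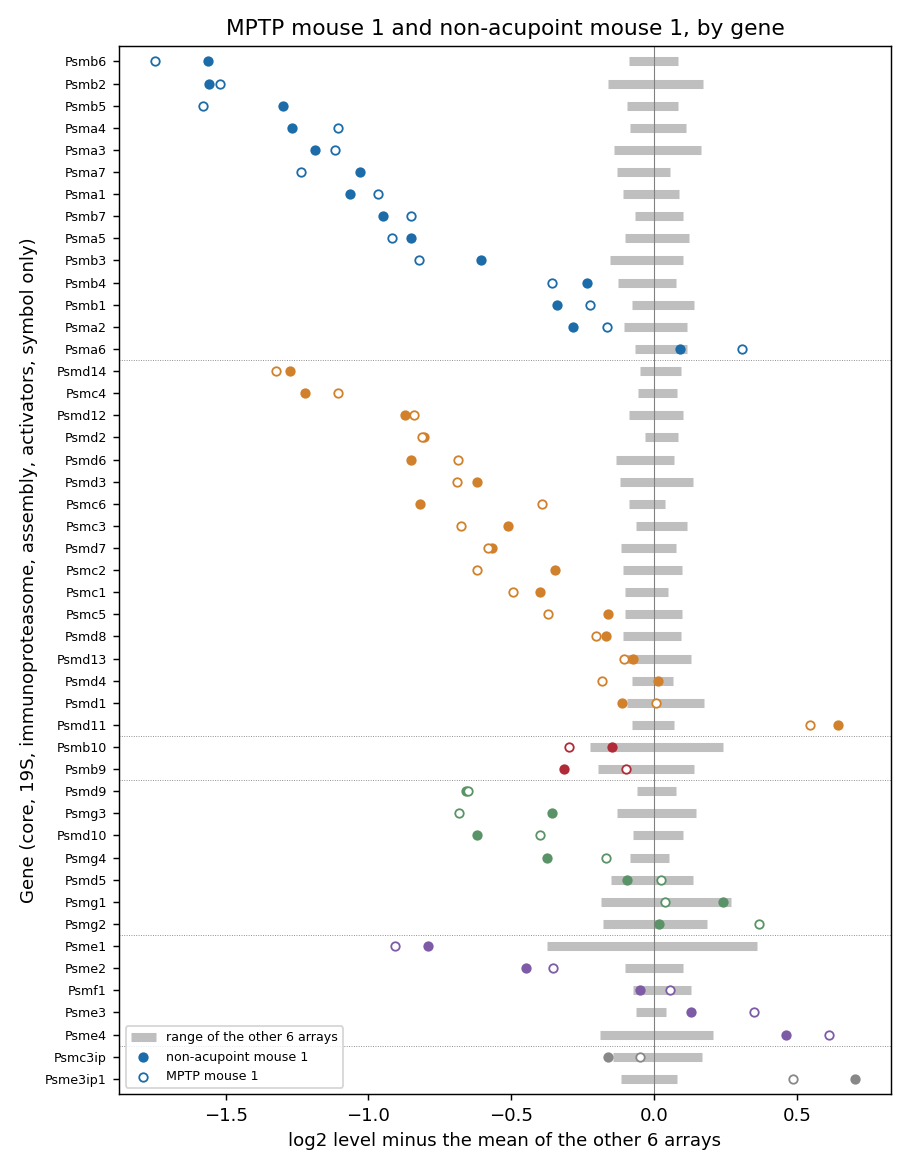
Log2 level of each of the 47 genes on non-acupoint mouse 1 (filled) and MPTP mouse 1 (open) minus the mean of the other 6 arrays (x axis), with genes in classes down the page. Grey bars span the other 6 arrays. All core genes except Psma6 lie left of their bar, down to a mean of -1.66 for Psmb6, and Psmd11, Psme3, Psme4 and Psme3ip1 lie right of it.

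The range over the other 6 arrays had a median of 0.20 over the 47 genes. For 5 genes with several probe sets the other probe sets gave the same direction: -1.06 and -1.12 for Psma3, -0.97 for Psma5, -0.88 for Psmb3, -0.27 for Psmc1 and -0.85 for Psmd2. A probe set shared by Psme2b and Psme2, which the rule leaves out because it carries 2 symbols, differed by 0.33, whereas the probe set of Psme2 alone differed by -0.40. Genes of other large complexes were low on these arrays too: 38 of 64 cytosolic ribosomal protein genes were below all 6 others and 16 above, with a median difference of -0.42, and 23 of 35 complex I subunit genes were below and 5 above, with a median difference of -0.51. Of all probe sets 29.2% were below and 28.3% above. RNA quality is not given in the sources used here, and its part in this pattern was not tested.

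By promoter letters, the 26 genes below all 6 others with a promoter window included all 5 with TGACNNNGC (19.2%), and the 14 other tested genes with a window included 0. GGGCGG stood in 18 of the 26 (69.2%) and in 5 of the 14 (35.7%). These shares are descriptions of small lists and were not tested.

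The comparison of MPTP alone with saline control asks what chronic MPTP does without needling, and no proteasome gene passed the threshold. In limma's moderated test on 8 arrays with Benjamini-Hochberg adjustment, 0 of 47 were called at an adjusted p under 0.05 (0% of all probe sets), with a smallest adjusted p of 0.714, and 0 had an unadjusted p under 0.05, where 5.29% of all probe sets did. The median log2 change was -0.24, with 13 genes higher (47.8% of all probe sets) and 34 lower (52.2%), against a median of -0.02 over all probe sets. Without the 2 arrays that stood apart, of which MPTP mouse 1 is 1, the median was 0.06 over the same genes, with 33 higher (47.3% of all probe sets) and 14 lower (52.7%). On those 6 arrays limma called 0 of 47 (0.361% of all probe sets), and 4 had an unadjusted p under 0.05 (15.8% of all probe sets). The core median was -0.43 with 8 arrays and 0.09 with 6. Both MPTP mice were above both controls for 5 genes (18.2% of all probe sets were) and below for 8 (20.4%).

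Psmb6 shows how the group mean behaved. It averaged 9.04 ± 1.30 in MPTP mice and 9.91 ± 0.02 in control mice (SD, n = 2 each), a log2 change of -0.86 ± 0.68 (SE) with an adjusted p of 0.714 by limma. MPTP mouse 2, at 9.96, lay above both control mice. Psma6 had the smallest unadjusted p of the core in this comparison, 0.0735 by limma, with 9.70 ± 0.13 in MPTP mice and 9.42 ± 0.00 in control mice (SD, n = 2 each), and both MPTP mice were above both controls.

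Hip needling on top of MPTP gave a similar picture against saline control. limma called 0 of 47 genes (0% of all probe sets, smallest adjusted p 0.705), and 0 had an unadjusted p under 0.05, where 4.88% of all probe sets did. The median change was -0.20 with 12 genes higher (47.6% of all probe sets) and 35 lower (52.4%), and without the 2 arrays it was 0.05 with 31 higher (55.9%) and 16 lower (44.1%). On those 6 arrays limma called 0 of 47 (0.329% of all probe sets), and 5 had an unadjusted p under 0.05 (21.1%). The non-acupoint and MPTP comparisons share the 2 control mice. The 2 non-acupoint mice lay above both controls for 6 genes (25.5% of all probe sets) and below for 10 (22.3%). Psmb9 and Psmb10 were both among those below, with changes of -0.27 ± 0.14 and -0.28 ± 0.16 (SE).

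Acupoint needling on top of MPTP, against saline control, is the comparison that does not rest on either of the 2 arrays for its group means. The median change was -0.03 with 17 genes higher (49.7% of all probe sets) and 30 lower (50.3%), and the core (-0.05) and the 19S particle (-0.02) lay close to 0. limma on 8 arrays called 0 of 47 genes (0% of all probe sets, smallest adjusted p 0.880), and 1, Psmb10, had an unadjusted p under 0.05, where 5.62% of all probe sets did. With the 2 arrays left out, the other 2 groups keep 1 mouse each, so the spread came only from the 2 acupoint and 2 control mice. The arrays left out were picked from these same data. In that fit 4 genes were called (Psme1, Psmb10, Psme4 and Psmg2), where 8.64% of all probe sets were. An unadjusted p under 0.05 was reached by 5, where 27.9% of all probe sets did. The 4 genes are a share of the 47 close to that background. Both acupoint mice were above both controls for 10 genes (30.4% of all probe sets) and below for 15 (29.2%).

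Psme1, the alpha subunit of the interferon-inducible PA28 cap, was the lowest of these relative to saline. It had 8.86 and 9.00 in acupoint mice, 8.44 and 9.19 in non-acupoint mice, 8.33 and 9.25 in MPTP mice, and 9.59 and 9.51 in control mice. All 6 injected mice lay below both controls, and the 2 lowest values were those of the arrays that stood apart. The acupoint change was -0.63 ± 0.35 (SE), to 0.648 of the control level, with an adjusted p of 1.00 by limma on 8 arrays. On the 6 arrays the same change had an SE of 0.08 and an adjusted p of 0.0124 by limma.

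Psmb10, an immunoproteasome subunit, had 7.65 and 7.68 in acupoint mice, 7.73 and 7.84 in non-acupoint mice, 7.58 and 7.96 in MPTP mice, and 8.01 and 8.12 in control mice. Again all 6 injected mice were below both controls, MPTP mouse 2 by the least. The acupoint change was -0.40 ± 0.16 (SE), with adjusted p values of 0.880 on 8 arrays and 0.0333 on 6 arrays by limma. Psmb9 did not follow it in acupoint mice, with a change of 0.00.

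Psme4, the PA200 cap, which binds the core in the nucleus and acts in the degradation of acetylated histones, had 8.46 and 8.55 in acupoint mice, 8.81 and 8.47 in non-acupoint mice, 8.96 and 8.26 in MPTP mice, and 8.18 and 8.15 in control mice. All 6 injected mice were above both controls, MPTP mouse 2 by the least. The acupoint change was 0.34 ± 0.25 (SE), with adjusted p values of 1.00 on 8 arrays and 0.0458 on 6 arrays by limma.

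Psmg2, a chaperone that helps to build the alpha ring, had 7.98 and 8.05 in acupoint mice, 7.88 and 7.91 in non-acupoint mice, 8.23 and 7.87 in MPTP mice, and 7.69 and 7.69 in control mice. All 6 injected mice were above both controls. The acupoint change was 0.33 ± 0.15 (SE), with adjusted p values of 0.968 on 8 arrays and 0.0453 on 6 arrays by limma. Psmg1, which acts in a pair with Psmg2, overlapped between injected and control mice. It had 7.42 and 7.58 in acupoint mice, 7.82 and 7.58 in non-acupoint mice, 7.61 and 7.39 in MPTP mice, and 7.85 and 7.62 in control mice.

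**Figure D3:**
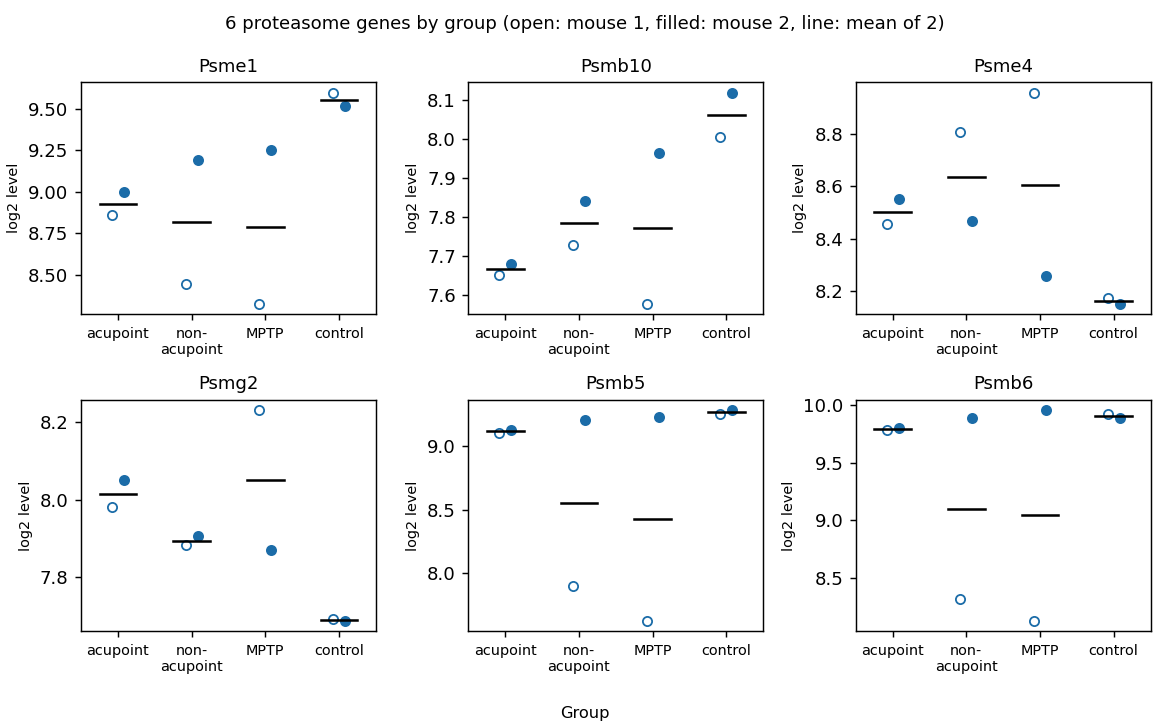
Log2 level (y axis, its own range in each panel) of Psme1, Psmb10, Psme4, Psmg2, Psmb5 and Psmb6 in the 4 groups (x axis). Open points are mouse 1, filled points are mouse 2 and lines are means of 2. In the first 4 panels all injected mice lie on one side of both controls, and in Psmb5 and Psmb6 the open points of the non-acupoint and MPTP groups lie far below the rest.

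Taking the 3 injected groups together against saline was added after the values had been seen. limma called 0 of 47 genes on 8 arrays (0% of all probe sets, smallest adjusted p 0.689), and 2, Psme1 and Psmb10, had an unadjusted p under 0.05, where 7.07% of all probe sets did. The median change was -0.17 with 11 genes higher (47.8% of all probe sets) and 36 lower (52.2%), and 0.03 on the 6 arrays with 31 higher (50.5%) and 16 lower (49.5%). On the 6 arrays the MPTP and non-acupoint groups are 1 mouse each, so only the changes are given for them. Psme1 changed by -0.43 there. All injected mice were below both controls for 6 genes (Psme1, Psmb10, Psmb3, Psmb5, Psmc5 and Psmd9), where 9.66% of all probe sets were. They were above both controls for 3 (Psme4, Psmg2 and Psma6), where 10.3% of all probe sets were. The 9 genes of 47 are thus about as many as the background holds.

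Genes of interferon response and antigen presentation, the setting in which Psme1 and Psmb10 are best known, were read beside them. Of 20 symbols, 14 had a probe set of their own that passed. Their mean level was 6.98 to 7.08 on acupoint arrays, 7.01 to 7.08 on non-acupoint arrays, 7.08 to 7.10 on MPTP arrays and 7.23 to 7.28 on control arrays, so the groups of injected mice lay below the control mice. Against control on 8 arrays, limma called 0 of the 14 in each of the 3 injected groups (0% of all probe sets). In acupoint mice 13 were lower (50.3% of all probe sets), in non-acupoint mice 11 (52.4%) and in MPTP mice 12 (52.2%). Both mice were below both controls for 11, 8 and 5 of the 14 in these groups, where 29.2%, 22.3% and 20.4% of all probe sets were. The 3 comparisons share the same 2 control mice, and the list was not tested as a set. An unadjusted p under 0.05 was reached by 0 of the 14 in acupoint mice, 2 in non-acupoint mice and 0 in MPTP mice, where 5.62%, 4.88% and 5.29% of all probe sets did in these groups. On 6 arrays 1 of the 14, B2m, was called in acupoint mice, where 8.64% of all probe sets were. Tapbp, which loads peptides onto class I molecules, had 8.16 and 8.18 in acupoint mice, 7.85 and 7.98 in non-acupoint mice, 8.12 and 8.23 in MPTP mice, and 8.42 and 8.28 in control mice. B2m, the light chain of class I molecules, overlapped between injected and control mice. It was highest on MPTP mouse 1 (11.40) and non-acupoint mouse 1 (11.15), and had 10.99 and 10.93 in control mice. The other injected mice lay below both controls, at 10.437 and 10.643 in acupoint mice, 10.738 in non-acupoint mouse 2 and 10.815 in MPTP mouse 2. Microglia markers, of which 11 of 12 passed, averaged 7.36 to 7.37 on acupoint arrays, 7.31 to 7.49 on non-acupoint arrays, 7.34 to 7.41 on MPTP arrays and 7.53 on both control arrays. The part of microglial content in the levels of Psme1 and Psmb10 was not tested.

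The comparisons among injected groups ask what needling adds to MPTP and whether the site matters. Acupoint against MPTP alone gave a median change of 0.17, with 37 genes higher (51.3% of all probe sets) and 10 lower (48.7%), and a core median of 0.39 with 13 of 14 core genes higher. Without the 2 arrays the median was -0.09, with 10 genes higher (51.8% of all probe sets) and 37 lower (48.2%), and 0 of 14 core genes were higher (core median -0.16). limma called 0 of 47 genes on 8 arrays (0% of all probe sets, smallest adjusted p 0.889) and 0 on 6 arrays (0.019%). An unadjusted p under 0.05 was reached by 0 of 47 on 8 arrays (1.37% of all probe sets). Both acupoint mice were above both MPTP mice for 2 genes (14.5% of all probe sets) and below for 2 (12.5%). Psmb5 averaged 9.12 ± 0.01 in acupoint mice and 8.43 ± 1.14 in MPTP mice (SD, n = 2 each), with MPTP mouse 2 at 9.23, above both acupoint mice.

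Acupoint against hip needling had the same form. The median was 0.16 with 35 genes higher (52.3% of all probe sets) and 12 lower (47.7%) on 8 arrays, and -0.07 with 9 higher (43.3%) and 38 lower (56.7%) on 6 arrays. On the 6 arrays the non-acupoint group is 1 mouse, so only the changes are given for them. limma called 0 of 47 genes on 8 arrays (0% of all probe sets, smallest adjusted p 0.893). An unadjusted p under 0.05 was reached by 0 of 47 on 8 arrays (1.89% of all probe sets). Both acupoint mice were above both non-acupoint mice for 4 genes (13.8% of all probe sets) and below for 4 (18% of all probe sets). Psmb9 was 1 of those above, at 6.98 ± 0.02 in acupoint mice and 6.71 ± 0.08 in non-acupoint mice (SD, n = 2 each), with an unadjusted p of 0.0964 by limma.

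Hip needling against MPTP alone sets 2 groups against each other that each hold 1 of the arrays that stood apart. The median change was 0.01 with 25 genes higher (52.4% of all probe sets) and 22 lower (47.6%) on 8 arrays, and -0.02 with 19 higher (58.2%) and 28 lower (41.8%) on 6 arrays. The 6 arrays set 1 mouse against 1 mouse here, so only the changes are given for them. limma called 0 of 47 genes on 8 arrays (0.0443% of all probe sets, smallest adjusted p 1.00). An unadjusted p under 0.05 was reached by 0 of 47 on 8 arrays (1.56% of all probe sets). Both non-acupoint mice were above both MPTP mice for 0 genes (5.67% of all probe sets) and below for 3 (6.74%). The F test over the 4 groups called 0 of 47 genes and 0% of all probe sets. The smallest unadjusted p among the 47 in that test was 0.177 (Psmg2), and 3.54% of all probe sets had one under 0.05.

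**Figure D4:**
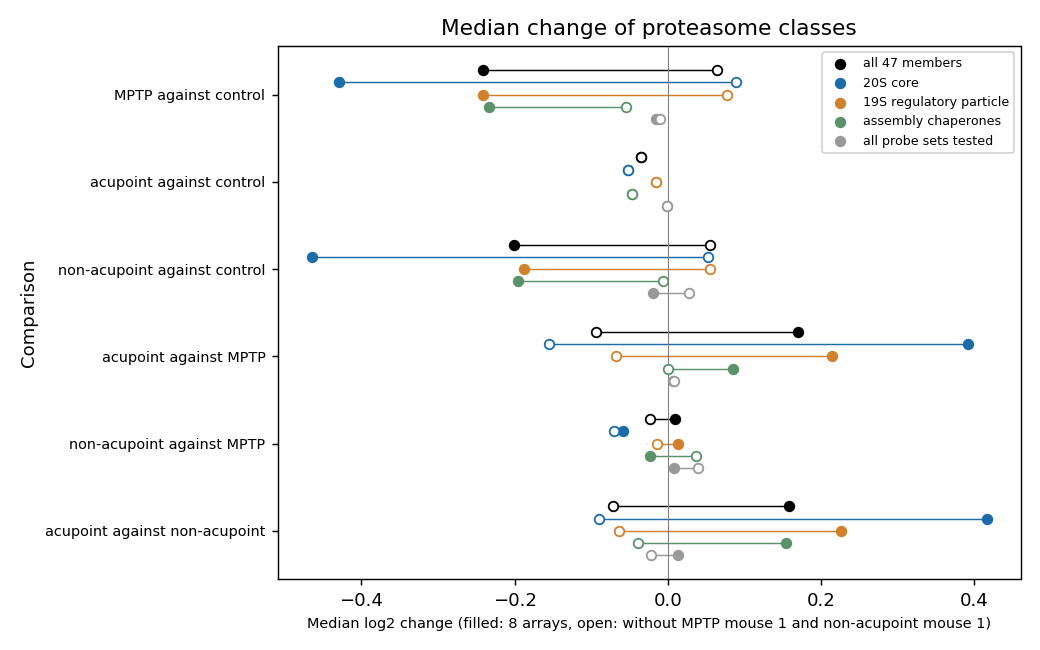
Median log2 change (x axis) of the 47 proteasome genes, the 20S core, the 19S particle, the assembly chaperones and all probe sets tested, in the 6 comparisons of groups (y axis). Filled points use 8 arrays and open points leave out MPTP mouse 1 and non-acupoint mouse 1. The core lies at -0.43 and -0.46 for MPTP and non-acupoint against control with 8 arrays, and at 0.09 and 0.05 with 6.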

How the data were processed

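Total RNA of 8 thalami (4 groups of 2 mice) was labelled with biotin from 300 ng and hybridised to whole-transcript Affymetrix arrays, per the labels' protocols. The deposited values are log2 levels that the authors made with RMA (background correction, quantile normalization and summary per probe set) in Affymetrix Expression Console, per the submitters' processing notes; their versions were not given in these sources. Of 35557 probe sets 21789 carry 1 gene symbol, 1621 several and 12147 none in the platform annotation. Probe sets with a mean over 8 arrays at or above the 40% quantile (5.63) and with at least 1 symbol were kept, 15791 in all. Group means were fitted on all 8 arrays with limma 3.58.1 (R 4.3.3), with 4 residual degrees of freedom, and p-values were adjusted by Benjamini-Hochberg over all probe sets tested. The fit was tested on simulated data with independent noise on each array. Those data hold no arrays that stand apart together, so they do not show how the fit behaves with such arrays. Gene names come from the platform annotation. The exact permutation test of 2 against 2 cannot go below 0.333 and was not used. Every gene of the symbol rule could be named, and of each partner list up to 4 genes with the smallest F test p. Pomp and Nfe2l2 were named besides these, after their values were seen. The genes and lists were chosen with earlier results of these data known, and the comparison of all injected mice with controls was added after values were seen. Mouse numbers were not used to pair the arrays in the main fit. Deviations of same-numbered mice correlated at 0.82 between the MPTP and non-acupoint groups, whose mouse 1 arrays are the 2 that stood apart. For the other pairs of groups they correlated between -0.28 and 0.19.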

Additional observations from a re-analysis of the deposited data

How the results depend on the processing

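Over 21 alternatives for each comparison of 2 groups and 20 for the F test and for all injected mice against control, the count of called proteasome genes stayed at 0 in every comparison except 2. For acupoint against control it was 4 with array weights and 4 with only the groups compared in the fit. It was 4 without MPTP mouse 1 and non-acupoint mouse 1, where 8.64% of all probe sets were called. With a term for these 2 arrays it was 1. For all injected mice against control it moved without the 2 arrays. That fit keeps 1 mouse in the MPTP and non-acupoint groups, so its count is not given. The share of all probe sets is not given for the other fits, so their counts cannot be read as particular to these genes. The smallest adjusted p among the 47 genes ranged from 0.0114 to 1.00 over the alternatives of acupoint against control. The median log2 change for MPTP against control was 0.064 without the 2 arrays and 0.064 with a term for them, and -0.47 to 0.064 when each mouse was left out in turn, the highest being without MPTP mouse 1. For non-acupoint against control it was 0.055, 0.049 and -0.39 to 0.055, the highest without non-acupoint mouse 1. For acupoint against MPTP it was -0.094, -0.096 and -0.094 to 0.41, the lowest without MPTP mouse 1. For acupoint against non-acupoint it was -0.071, -0.083 and -0.071 to 0.38, and for non-acupoint against MPTP it was -0.29 to 0.27 when each mouse was left out. These fits contain fewer arrays or a term for the 2, and no other cause was tested. Where a comparison of 2 groups holds only 1 of the 2 arrays, leaving out that array or both keeps the same mice. Those medians are therefore equal by construction. Without MPTP mouse 2 the MPTP group is MPTP mouse 1 alone, so its spread cannot be measured and that fit gives a median change only. With mouse number as a replicate block, 0 of 47 genes were called in every comparison. Each group holds a mouse 1 and a mouse 2, so this block cannot change the medians. They stayed at -0.24 for MPTP, -0.03 for acupoint and -0.20 for non-acupoint against control. The number of arrays, 2 a group, limits every call here, and dim genes such as Psmb8 were not tested.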

Other observations

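Partners of the proteasome were divided on MPTP mouse 1 and non-acupoint mouse 1 as its subunits were. Of all probe sets 29.2% were below all 6 other arrays on both and 28.3% above. Of 11 cofactors 6 were below and 2 above, with a median difference of -0.35. Pomp, the chaperone that completes the core, was named after its values were seen: it had 9.33 on non-acupoint mouse 1 and 9.43 on MPTP mouse 1, and between 10.63 and 10.78 on the other 6 arrays. Sem1, a small subunit of the lid whose symbol the name rule does not take, was higher on the 2 arrays by 0.47. Fbxo7, a ubiquitin ligase adaptor that binds the inhibitor PI31 and whose mutation causes a form of parkinsonism, had 8.66 and 8.62 in acupoint mice, 8.85 and 8.74 in non-acupoint mice, 9.03 and 8.88 in MPTP mice, and 8.72 and 8.77 in control mice. Both acupoint mice lay below both MPTP mice, with a change of -0.32 ± 0.13 (SE), an unadjusted p of 0.0459 and an adjusted p of 0.889 by limma on 8 arrays.

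Genes that deliver ubiquitinated proteins showed no common direction on the 2 arrays: 3 of 8 were below all 6 others (29.2% of all probe sets) and 4 above (28.3%), with a median difference of 0.07. Ubqln2, a shuttle receptor, differed by -1.16, while Ufd1 and Nploc4, cofactors of the segregase Vcp, differed by 0.45 and 0.28. Nploc4 was above both controls in all 6 injected mice, at 9.15 and 9.13 in acupoint mice, 9.34 and 9.16 in non-acupoint mice, 9.37 and 9.06 in MPTP mice, and 8.97 and 8.95 in control mice, with an adjusted p of 0.739 by limma for injected against control. Of 8 regulators of proteasome transcription 5 were below all 6 others (29.2% of all probe sets) and 1, Nfyc, a subunit of the CCAAT-binding factor, was above (28.3%), with a difference of 0.29. Nfe2l1, the factor that raises proteasome genes when the proteasome is inhibited, differed by -0.31. Ngly1, the enzyme that activates it, differed by -0.47, and Mafg, a binding partner of Nfe2l1, by -0.84. Nfe2l2, which binds the same element and was named after its values were seen, differed by 0.29. On each of the 2 arrays 5 of the 8 regulators were lower than the mean of the other 6 and 3 higher.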
